A study of Sus scrofa with 72 samples.

Results

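Porcine synovial mesenchymal stem cells (SMSCs) held in complete culture medium (CCM), with no adipogenic stimulus, were compared between day 4 and day 1 of culture across all genes on the array. The comparison took the CCM arrays that their labels place on these days, 8 of day 4 and 7 of day 1, which are 15 of the 72 Snowball arrays of the series. Each day held the same 4 pools of cells, from the adipose synovium of the infrapatellar fat pad (FP) or the fibrous synovium of the joint capsule (FS) of Angeln Saddleback (AS) or German Landrace (DL) pigs, with 2 independent cultures per pool, except for a single one of DL FS on day 1. Every pool joined cells of several male piglets of the same breed and tissue, which had been frozen and expanded before they were seeded again in CCM, a high-glucose medium with fetal bovine serum. The spread behind each p-value thus comes from repeated cultures and from differences in the change between pools. It does not measure differences between the animals within a pool. Sister cultures of these pools were grown in adipogenic induction medium (AIM), a commercial differentiation medium, and their arrays of the same days serve below as a second course of culture. The replicate 2 array labelled DL FS CCM day 1 was left out because its label disagrees with the tables of the study. After the mean of each probe set was taken off, its median correlation was 0.225 with the 7 other day 1 arrays in CCM and 0.669 with the day 0 arrays, while each of the other 7 day 1 arrays correlated with the rest of its day at 0.743 to 0.808.

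A cell that divides copies its DNA in S phase and parts the copies in mitosis, and most genes for these steps are switched on by E2F and MYB factors once cyclin-dependent kinases (CDKs) have inactivated the retinoblastoma proteins. In resting cells the DREAM complex, built on retinoblastoma relatives and the LIN proteins, holds the same genes down, and CDK inhibitors and FOXO targets are known to accompany the arrest. Resting connective tissue cells are known to stay active in metabolism and to go on making and turning over their matrix. The arrays measure RNA and not cell number or DNA synthesis, and in RNA from a whole culture fewer cells of a type and less RNA per cell cannot be told apart.

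Values are log2 intensities, and a difference is the day 4 mean minus the day 1 mean with the pool as a block, fitted in limma over 18335 probe sets, with its SE. A probe set passed at an adjusted p under 0.01. The array medians over these probe sets lay between 5.40 and 5.48 on day 4 and between 5.42 and 5.49 on day 1, and the median difference over them was 0.02. The median over the stromal markers was high, at 10.5 to 10.9 on the day 4 arrays and 9.56 to 9.86 on day 1. Of 9 tested stromal markers, however, 3 were higher on day 4 and 3 lower, with a median difference of -0.07. NT5E (CD73), a defining stromal marker, was on both days below the array median of all probe sets. That median was 3.98 to 4.06 on day 4 and 3.97 to 4.02 on day 1. Of 9 leukocyte markers on the array 5 were below that median on both days (PTPRC and CD3E among them), as were 3 of 7 epithelial markers (EPCAM, CDH1 and KRT5) and 3 of 10 endothelial markers (KDR, TEK and ESAM), and the other markers of these lists lay above it on at least 1 of the days. The median over the epithelial list was 3.93 to 4.84 on the day 4 arrays and 4.13 to 4.75 on the day 1 arrays, and over the endothelial list 4.25 to 4.74 on the day 4 arrays and 4.27 to 4.62 on the day 1 arrays. None of 3 tested epithelial markers passed, and of 5 tested endothelial markers 1 was lower and none higher. The part of such cells in the results was not tested. Of the fat cell markers, 2 of 7 tested were higher on day 4 (PLIN1 and PPARG) and none was lower.

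The day of culture set the arrays apart more than breed or tissue did. The first principal component held 56.2% of the variance, and the day accounted for 98.6% of its scores, while the second component (10.2%) followed the breed and the third (4.75%) the tissue. In limma, 6688 probe sets passed (36.5%), 3294 of them higher on day 4 (18.0%) and 3394 lower (18.5%). With the left-out array added as labelled, 5402 passed, 2587 higher and 2815 lower. The changes of largest size lay on the lower side, since 23 passing probe sets were higher and 107 lower by over 8-fold, against 754 higher and 830 lower by over 2-fold. Lists of genes are counted below over the 7497 genes that the platform names, each by its probe set of highest mean, of which 42.2% passed, 18.8% higher and 23.3% lower on day 4, with a median difference of -0.01. Steady or low genes were not tested, so that a count is a share of the tested genes and not of the whole list. The lists at the bottom of the plot of shares by list concern division, the contractile cytoskeleton and ribosome assembly, and those at its top interferon-induced genes, CDK inhibitors, complement and lysosomes.

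**Figure D1:**
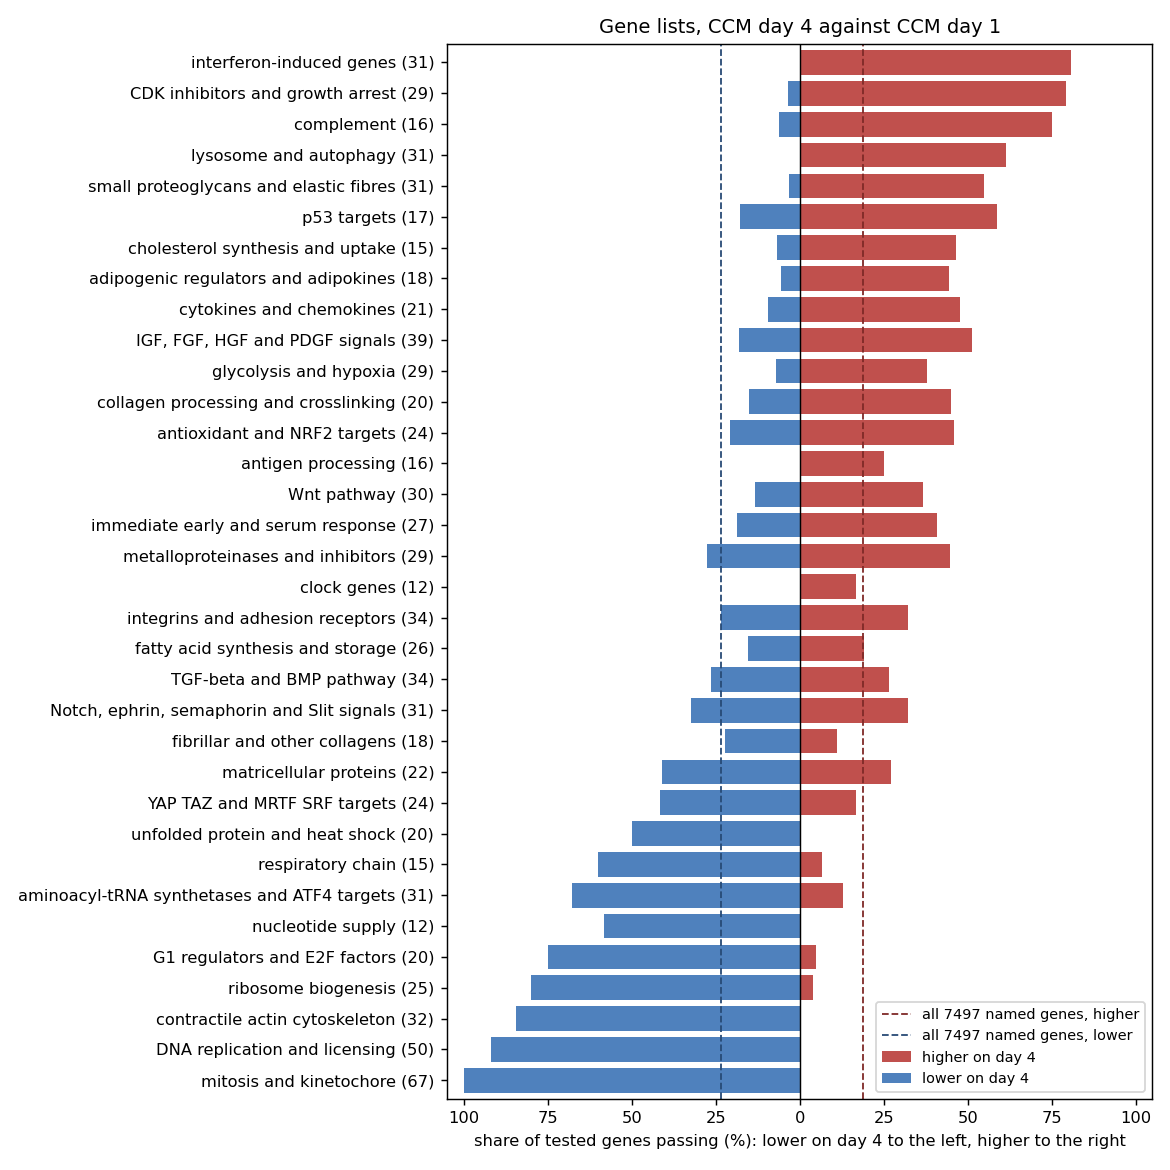
Share of the tested genes of each list (in %, number of genes in brackets) that were higher on CCM day 4 (red bars, to the right) or lower (blue bars, to the left) than on CCM day 1 at an adjusted p under 0.01. Dashed lines mark the same shares among all 7497 named genes, 18.8% higher and 23.3% lower; all 67 mitosis genes were lower, and 25 of 31 interferon-induced genes were higher.

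The genes of mitosis fell together. All 67 tested genes of the mitosis and kinetochore list were lower on day 4, with a median difference of -3.08 and a range of -4.16 to -0.68. In each of the 67 the highest day 4 array lay below the lowest day 1 array, while 16.2% of the 7497 named genes were lower in this way. Of the 15 largest falls among all genes, 11 were on this list.

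CDK1, the kinase that drives entry into mitosis, read 3.54 to 4.44 (median 3.96) on the day 4 arrays and 7.91 to 8.34 (median 8.22) on the day 1 arrays. It fell by 4.16 ± 0.13 on the log2 scale (adjusted p = 1.75e-11), 17.8-fold, and its day 4 values lay above but near the mean of the background controls, which was 3.24 to 3.37 on these arrays. Its partner cyclin B1 (CCNB1) read 4.68 to 5.52 (median 4.96) on day 4 and 8.49 to 9.27 (median 9.21) on day 1, a difference of -4.03 ± 0.15 (adjusted p = 3.68e-11). The 2 groups of arrays were more than 2 log2 units apart for both genes, and the same held for each pool.

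The machinery that attaches chromosomes to the spindle fell as far. NDC80, which binds microtubules at the outer kinetochore, read 3.52 to 4.97 (median 4.15) on day 4 and 7.93 to 8.54 (median 8.16) on day 1 (difference -4.10 ± 0.18, adjusted p = 2.09e-10). The checkpoint kinase TTK differed by -4.02 ± 0.17, the kinetochore protein CENPF by -3.91 ± 0.12 and the spindle protein DLGAP5 by -3.93 ± 0.14. Of the kinesins, KIF11, which pushes the spindle poles apart, differed by -3.88 ± 0.13 and KIF23, which acts in cytokinesis, by -3.95 ± 0.17. UBE2C, the ubiquitin-conjugating enzyme of the anaphase-promoting complex, differed by -3.97 ± 0.17 and the mitotic kinase PBK by -3.88 ± 0.17. TOP2A, which untangles sister chromatids, read 4.80 to 6.43 (median 5.44) on day 4, highest in the cultures of the AS FP pool, and 9.13 to 9.62 (median 9.32) on day 1 (-3.81 ± 0.15, adjusted p = 8.59e-11).

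The largest fall among the named genes that passed with 1 sign in all pools belonged to SHCBP1, which is known to act in the midbody of dividing cells and is on none of the lists. It read 3.58 to 5.02 (median 3.99) on day 4 and 8.47 to 8.97 (median 8.80) on day 1, a 25.5-fold difference (-4.67 ± 0.19, adjusted p = 1.1e-10). DIAPH3, a formin of cytokinesis (-3.82 ± 0.16), and PCLAF, a partner of PCNA (-3.85 ± 0.14), were the other members of the 15 outside the lists. The mitosis list fell in every pool, with a median over its genes of -2.77 in AS FP and of -3.14 to -3.29 in the other pools.

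**Figure D2:**
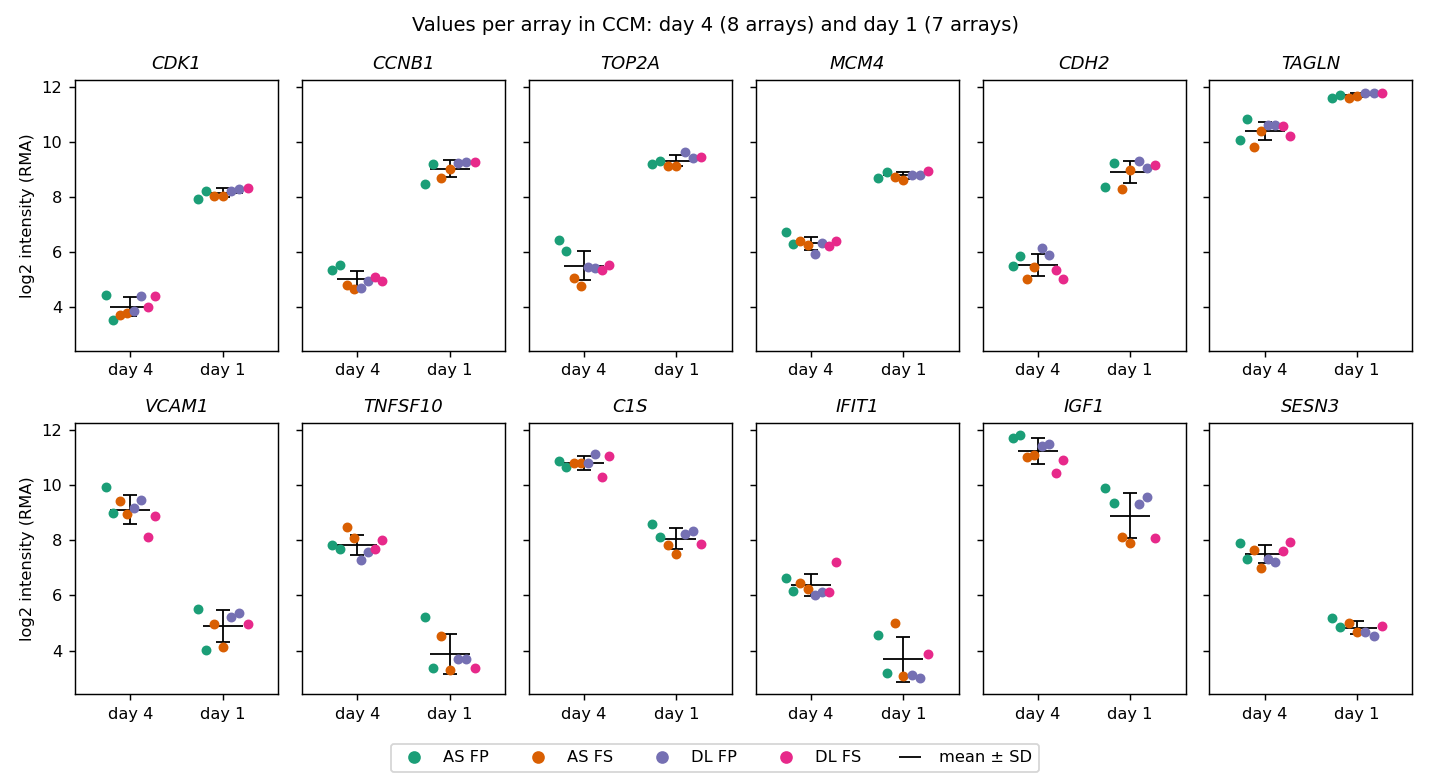
Log2 intensity of 12 genes on each CCM array, day 4 (8 arrays) left of day 1 (7 arrays), coloured by pool, with the mean ± SD of each day. CDK1, CCNB1, TOP2A, MCM4, CDH2 and TAGLN lay lower on all day 4 arrays than on any day 1 array, and VCAM1, TNFSF10, C1S, IFIT1, IGF1 and SESN3 lay higher.

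DNA replication genes fell less deeply but nearly as widely. Of 50 tested, 46 were lower on day 4 and none higher, with a median difference of -1.47. The 4 that did not pass were MCM8 (-0.52), GINS2 (-0.39), CDT1 (-0.35) and WDHD1 (0.24). MCM4, a subunit of the helicase that is loaded at origins, read 5.93 to 6.72 (median 6.31) on day 4 and 8.61 to 8.93 (median 8.80) on day 1 (-2.47 ± 0.10, adjusted p = 8.59e-11). MCM10, which helps to fire origins, differed by -2.95 ± 0.13, the GINS subunit GINS1 by -2.78 ± 0.09 and the polymerase subunit POLE2 by -2.89 ± 0.11. The histone chaperone ASF1B had the largest change of the list (-3.46 ± 0.13, adjusted p = 3.43e-11). The repair genes EXO1 (-3.11 ± 0.11), RAD51AP1 (-3.08 ± 0.12) and BRCA1 (-2.65 ± 0.15) fell as well. The groups of arrays did not overlap for 45 of the 50.

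Of 12 tested genes for the supply of nucleotides, 7 were lower and none higher. Both subunits of ribonucleotide reductase, which makes deoxynucleotides, fell. RRM2, its S phase subunit, read 4.01 to 5.57 (median 4.64) on day 4 and 7.94 to 8.79 (median 8.65) on day 1 (-3.85 ± 0.20, adjusted p = 1.24e-09, or -3.12 by the median of its probe sets), although 1 of its other probe sets passed in the opposite direction. RRM1, its steadier subunit, read 7.75 to 7.97 (median 7.87) on day 4 and 8.86 to 9.13 (median 9.06) on day 1 (-1.16 ± 0.07, adjusted p = 5.51e-09).

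The regulators upstream of these genes moved too. Of 20 G1 regulators and E2F factors, 15 were lower and only RBL2 was higher. Cyclin E2 (CCNE2), which activates CDK2 at the start of S phase, read 4.41 to 5.03 (median 4.49) on day 4 and 7.11 to 7.33 (median 7.21) on day 1 (-2.64 ± 0.10, adjusted p = 4.92e-11). E2F1, the activating E2F factor, differed by -2.05 ± 0.09 and MYBL2, the MYB factor of the mitotic genes, by -2.05 ± 0.12. LIN9 (-1.98 ± 0.10) and LIN54 (-0.88 ± 0.10), subunits that MYBL2 and DREAM complexes share, fell as well. The retinoblastoma relatives went opposite ways, with p107 (RBL1) lower (-1.13 ± 0.07, adjusted p = 5.52e-09) and p130 (RBL2), the relative known from resting cells, higher (0.87 ± 0.12, adjusted p = 3.93e-05). MYC (0.04) and cyclin D2 (CCND2, -0.04) did not pass.

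Genes of growth arrest rose. Of 29 CDK inhibitors and genes of arrest, 23 were higher, 1 was lower and 5 did not pass, with a median difference of 0.84. With the left-out array added as labelled 18 were higher. CDKN1A (p21), the CDK inhibitor that p53 induces, read 10.9 to 11.1 (median 11.0) on day 4 and 9.34 to 10.2 (median 9.88) on day 1 (1.20 ± 0.12, adjusted p = 9.08e-07). CDKN1B (p27) rose less (0.47, adjusted p = 0.00293, and 0.0131 without the DL FS day 1 array), and CDKN2C (p18) was the member that fell (by 1.00, adjusted p = 3.65e-07). Thus the inhibitors of the cyclin-dependent kinases did not move in the same direction.

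The sestrins SESN1 and SESN3, which restrain the growth kinase mTORC1, had the largest rises of the list. SESN3 read 6.99 to 7.94 (median 7.46) on day 4 and 4.54 to 5.20 (median 4.85) on day 1 (2.63 ± 0.13, adjusted p = 4.89e-10), and SESN1 read 6.77 to 7.53 (median 7.21) on day 4 and 4.61 to 5.62 (median 5.05) on day 1 (2.00 ± 0.14). The growth arrest genes GAS1 (1.47 ± 0.11) and GAS6 (1.69 ± 0.13, the ligand of the TAM receptors), the MYC antagonist MXI1 (1.46 ± 0.11) and the stress-response factors FOXO1 (0.36) and FOXO3 (0.84) were also higher. TXNIP, a brake on glucose uptake, read 10.3 to 10.9 (median 10.5) on day 4 and 8.41 to 10.1 (median 8.60) on day 1 (1.63 ± 0.23, or 0.52 by the median of its probe sets), although 1 of its other probe sets passed in the opposite direction. The groups of arrays did not overlap, in either direction, for 17 of the 29 genes, SESN3, SESN1 and TXNIP among them. Of the 7497 named genes 10.7% were higher and 16.2% lower in this way.

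Of 17 p53 targets 10 were higher, 3 lower and 4 not passing. CDKN1A and SESN1, the largest rise here, are also on the list of CDK inhibitors and arrest genes, so that these counts overlap. The other higher ones included MDM2, the ligase that degrades p53 (0.89 ± 0.12), the apoptosis effector BAX (0.66 ± 0.07), CCNG1 (1.04 ± 0.08) and ZMAT3 (0.90 ± 0.16). The lower ones were the apoptosis gene PMAIP1 (NOXA, -0.93 ± 0.19), GADD45A (-0.92 ± 0.10) and SESN2 (-0.35). The targets therefore did not move as a block.

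The immediate early genes depended on the array that was left out. Of 27 tested genes 11 were higher and 5 lower on day 4, and with the array added as labelled 1 was higher and 4 were lower. FOS, which is switched on within minutes of a growth signal, read 5.83 to 7.59 (median 7.28) on day 4 and 4.07 to 4.73 (median 4.32) on day 1 (2.54 ± 0.28, adjusted p = 2.86e-06), and with the array added its difference was 1.77 (adjusted p = 0.0573). EGR3 (1.90 ± 0.25) and EGR2 (1.44 ± 0.23) lost their calls in the same way, as did the antiproliferative gene BTG2 (1.24 ± 0.14). PTGS2, the inducible cyclooxygenase, went the other way, at 4.51 to 5.48 (median 4.95) on day 4 and 5.50 to 7.54 (median 6.32) on day 1 (-1.51 ± 0.27, adjusted p = 0.000316).

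Genes that build the means of growth fell by small amounts. Of 25 tested genes of ribosome biogenesis (39 on the array) 20 were lower and only POLR1D was higher (0.40), with a median difference of -0.53. LYAR, a nucleolar regulator of ribosome assembly, moved most, at 5.20 to 5.56 (median 5.43) on day 4 and 6.89 to 7.39 (median 7.26) on day 1 (-1.82 ± 0.09, adjusted p = 7.09e-10). NOLC1, a nucleolar chaperone, differed by -0.93 ± 0.09, and UTP20 and WDR43, factors of the small subunit, by -0.78 ± 0.09 and -0.77 ± 0.09. Of 31 aminoacyl-tRNA synthetases and targets of ATF4, the factor of the amino acid response, 21 were lower and 4 higher. The largest falls there were the serine synthesis enzyme PSPH (-1.19 ± 0.10), the lipoprotein receptor VLDLR (-1.14 ± 0.09), the glutathione-degrading enzyme CHAC1 (-1.10 ± 0.11) and the arginyl-tRNA synthetase RARS (-0.95 ± 0.08).

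Chaperones of the endoplasmic reticulum and the respiratory chain followed in part. Of 20 genes of the unfolded protein response and heat shock 10 were lower and none higher. HSPA5 (BiP), the main chaperone of the endoplasmic reticulum, read 11.0 to 11.5 (median 11.3) on day 4 and 11.8 to 12.2 (median 12.0) on day 1 (-0.73 ± 0.07, adjusted p = 6.16e-07). The secreted stress factor MANF differed by -0.83 ± 0.11 and HYOU1 by -0.60 ± 0.08. Of 15 tested respiratory chain genes (32 on the array) 9 were lower, with CYCS (cytochrome c, -0.83 ± 0.10) and the ATP synthase subunit ATP5G1 (-0.81 ± 0.08) among them. COX6C was higher (0.29), a call that was lost without any of 4 arrays.

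Of 29 genes of glycolysis and the hypoxia response 11 were higher, 2 lower and 16 not passing. The 2 were the glucose transporter SLC2A1 and the vascular growth factor VEGFA (-0.72). SLC2A1 read 8.36 to 9.16 (median 8.73) on day 4 and 10.2 to 11.1 (median 10.8) on day 1 (-2.02 ± 0.14, adjusted p = 2.01e-08), but with the median of its probe sets the difference was -1.09 (adjusted p = 0.189). The HIF target EGLN3, an oxygen sensor, rose in contrast, at 4.70 to 6.04 (median 5.63) on day 4 and 3.29 to 3.99 (median 3.81) on day 1 (1.86 ± 0.18, adjusted p = 9.98e-07). ANKRD37, another HIF target, differed by 1.06 ± 0.10.

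The contractile cytoskeleton was lower on day 4. Of 32 tested genes 27 were lower and none higher, with a median difference of -0.73. TAGLN (SM22), an actin-binding protein of contractile cells, read 9.80 to 10.8 (median 10.5) on day 4 and 11.6 to 11.8 (median 11.7) on day 1 (-1.31 ± 0.12, adjusted p = 6.6e-07). The smooth muscle actin ACTG2 read 8.64 to 10.8 (median 9.91) on day 4 and 11.2 to 12.0 (median 11.9) on day 1, with a wide spread between day 4 cultures (-1.91 ± 0.27, adjusted p = 3.68e-05). The myosin light chain MYL9 (-1.57 ± 0.19), the crosslinker ACTN1 (-1.24 ± 0.09) and the smooth muscle actin ACTA2 (-0.76, adjusted p = 4.88e-05) fell with them. Of 6 tested markers of smooth muscle cells and pericytes 4 were lower and 2 higher, KCNJ8 and ABCC9, which encode the subunits of a potassium channel. ABCC9 was among the 15 largest rises, at 5.76 to 7.82 (median 7.04) on day 4 and 3.21 to 4.50 (median 3.51) on day 1 (3.24 ± 0.20, adjusted p = 6.83e-09), and the pericyte marker RGS5 was below the array median on both days. The median over the 8 markers of this list on the array was 5.35 to 5.85 on day 4 and 4.81 to 5.55 on day 1. The 6 tested markers, in contrast, had a median difference of -0.68. The part of a change in cell makeup in these values was not tested.

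Targets of YAP and TAZ and of MRTF and SRF, which respond to stretch and actin state, were lower in 10 of 24 cases and higher in 4. The BMP antagonist CRIM1 (-1.76 ± 0.12), GADD45B (-1.47 ± 0.14) and the LIM protein FHL2 (-1.23 ± 0.14) had the largest falls, and IGFBP3, a carrier of insulin-like growth factors, rose (1.81 ± 0.21, or 1.15 by the median of its probe sets). CYR61 (CCN1), a matricellular target of YAP, read 8.79 to 10.3 (median 9.76) on day 4 and 10.5 to 10.9 (median 10.7) on day 1 (-1.03 ± 0.20, adjusted p = 0.000661).

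Cell adhesion genes moved both ways and held the largest rise and a large fall. Of 34 integrins and adhesion receptors 11 were higher and 8 lower, against 18.8% and 23.3% of all named genes. The count of lower genes thus does not set this list apart. VCAM1, the receptor that leukocytes bind through integrin alpha 4, had the largest rise by the same rule, at 8.12 to 9.91 (median 9.07) on day 4 and 4.02 to 5.51 (median 4.98) on day 1, a 19.4-fold difference (4.28 ± 0.25, adjusted p = 5.08e-09). CDH2 (N-cadherin), which joins neighbouring mesenchymal cells, read 5.04 to 6.15 (median 5.48) on day 4 and 8.30 to 9.31 (median 9.06) on day 1, 10.2-fold lower (-3.35 ± 0.16, adjusted p = 6.5e-10). For both genes the groups of arrays lay over 2 log2 units apart.

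The collagens themselves moved little. Of 18 tested (25 on the array), 4 were lower, 2 higher and 12 not passing. Without the DL FS day 1 array 2 were lower, and the chains of collagen I did not pass, at -0.07 ± 0.07 for COL1A1 and -0.03 ± 0.06 for COL1A2. COL15A1, a collagen of basement membrane zones, read 9.01 to 9.86 (median 9.51) on day 4 and 10.6 to 11.0 (median 10.9) on day 1 (-1.41 ± 0.10, adjusted p = 2.37e-08). COL14A1, which coats collagen fibrils, moved the other way, at 10.1 to 11.1 (median 10.8) on day 4 and 8.84 to 9.90 (median 9.36) on day 1 (1.34 ± 0.12, adjusted p = 5.15e-07). COL3A1, the other higher one (0.31 ± 0.08, adjusted p = 0.00642), lost its call when any of 10 of the 15 arrays was left out.

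Enzymes that process collagen were higher in 9 of 20 cases and lower in 3. PCOLCE, which speeds the trimming of procollagen, differed by 1.15 ± 0.12 (adjusted p = 1.8e-06), the procollagen protease ADAMTS2 by 0.85 ± 0.12 and the prolyl hydroxylase P4HA1 by 0.68 ± 0.08. The 3 lower genes were all lysyl oxidase-like enzymes, which crosslink collagen and elastin: LOXL3 (-1.04 ± 0.09), LOXL4 (-1.01 ± 0.11) and LOXL2 (-0.78 ± 0.11). LOX itself, the founding member of that family, was higher (0.39, adjusted p = 0.00149).

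The small proteoglycans and elastic fibre genes rose. Of 31 tested 17 were higher and only CD44, the hyaluronan receptor, was lower (-0.79), with a median difference of 0.42. EFEMP1 (fibulin-3) read 8.04 to 9.27 (median 8.63) on day 4 and 4.77 to 7.21 (median 5.65) on day 1 (2.79 ± 0.19, adjusted p = 2.56e-08), and ECM2, a matrix protein related to the leucine-rich proteoglycans, 8.60 to 9.41 (median 9.02) on day 4 and 5.99 to 7.61 (median 6.63) on day 1 (2.31 ± 0.24). Of the leucine-rich proteoglycans that regulate collagen fibrils, osteomodulin (OMD) differed by 2.14 ± 0.21, osteoglycin (OGN) by 1.95 ± 0.14 and decorin (DCN) by 0.95 ± 0.10. Asporin (ASPN, 1.09 ± 0.15, adjusted p = 3.63e-05) rose with groups of arrays that overlapped. Keratocan (KERA) read 2.26 to 5.14 (median 3.95) on day 4 and 1.98 to 2.58 (median 2.33) on day 1, where its mean was below the background controls, so that its difference of 1.43 ± 0.32 became 0.79 (adjusted p = 0.0147) when values were raised to these controls.

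Matricellular proteins, which sit in the matrix but signal to cells, split between 6 higher and 9 lower of 22. Periostin (POSTN), known from remodelling connective tissue, read 8.51 to 10.8 (median 9.76) on day 4 and 7.07 to 8.54 (median 7.66) on day 1 (2.06 ± 0.19, adjusted p = 4.65e-07), and the groups overlapped only at the lowest day 4 array, from AS FP. The matrix proteins WISP2 (CCN5, 1.09 ± 0.08) and SVEP1 (0.97 ± 0.11) also rose. Osteopontin (SPP1) went the opposite way, at 4.09 to 5.62 (median 4.86) on day 4 and 5.81 to 7.98 (median 7.22) on day 1, and fell by 2.00 ± 0.17 (adjusted p = 1.98e-07), as did tenascin C (TNC, -1.25 ± 0.14) and thrombospondin 1 (THBS1, -0.79 ± 0.09).

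Of 29 metalloproteinases and inhibitors 13 were higher and 8 lower, and with the left-out array added as labelled 7 were higher and 7 lower. The aggrecanase ADAMTS5 read 6.28 to 7.93 (median 6.97) on day 4 and 4.50 to 5.00 (median 4.85) on day 1 (2.21 ± 0.17, adjusted p = 1.01e-07). MMP14, which activates MMP2 at the cell surface, and MMP2 rose by 1.00 and 0.86. The urokinase receptor PLAUR (-1.17 ± 0.14), the meltrin ADAM12 (-0.92 ± 0.11) and the inhibitor TIMP1 (-0.60, adjusted p = 0.0013) fell.

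Complement genes were among the largest rises. Of 16 tested complement genes 12 were higher and only CFP (properdin) was lower (-0.77, or -0.42 with an adjusted p of 0.366 by the median of its probe sets), with a median difference of 1.15. The proteases of the first component, C1S and C1R, rose together. C1S read 10.3 to 11.1 (median 10.8) on day 4 and 7.50 to 8.57 (median 8.12) on day 1 (2.76 ± 0.14, adjusted p = 7.52e-10), and C1R read 9.83 to 10.6 (median 10.3) on day 4 and 7.21 to 8.36 (median 7.87) on day 1 (2.49 ± 0.14, adjusted p = 4.43e-09). C4A, a substrate of C1S, read 7.23 to 8.93 (median 8.00) on day 4 and 4.43 to 5.39 (median 4.88) on day 1, an 8.31-fold difference (3.06 ± 0.23, adjusted p = 7.69e-08). C7, a part of the membrane attack complex, read 4.29 to 8.17 (median 6.85) on day 4 and 2.76 to 4.93 (median 3.09) on day 1 (3.43 ± 0.26, adjusted p = 7.82e-08). Its day 1 median lay below the mean of the background controls, 3.16 to 3.32 on these arrays, so that the size of its difference depends on that floor. C7 was highest in the AS FP pool on both days, so that the groups of arrays overlapped although every pool rose. CFB (1.46) and C3 (1.00) of the alternative pathway were higher as well.

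Most interferon-induced genes were higher. Of 31 tested 25 were higher, none was called lower and 6 did not pass, with a median difference of 0.82. IFIT1, which binds foreign RNA, read 6.03 to 7.22 (median 6.21) on day 4 and 3.01 to 4.99 (median 3.18) on day 1 (2.65 ± 0.28, adjusted p = 1.97e-06). On day 1, 4 of the 7 values lay below 3.2 and below the mean of the background controls of their own arrays. The size of the IFIT1 difference thus depends on that floor. HERC6, a ligase of the HERC family, read 7.63 to 8.13 (median 7.86) on day 4 and 5.74 to 6.60 (median 5.98) on day 1 (1.79 ± 0.14, adjusted p = 8.75e-08), and the antiviral GTPase MX1 differed by 1.52. The RNA sensor partner IFIT3 differed by 2.04 ± 0.17, or by 1.79 when values were raised to the background controls. Among 16 genes of antigen processing 4 were higher, against 18.8% of all named genes. Of these 4, B2M, the light chain of class I molecules, differed by 0.48 ± 0.07 (adjusted p = 5.73e-05).

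Cytokine genes were higher in 10 of 21 cases, and the 2 lower ones were IL1A (-0.72) and CXCL16 (-0.67). TNFSF10 (TRAIL), a death ligand that interferon induces, read 7.28 to 8.46 (median 7.77) on day 4 and 3.31 to 5.23 (median 3.69) on day 1, 15.6-fold higher (3.96 ± 0.26, adjusted p = 1.68e-08), with a difference of 2.97 by the median of its probe sets. CXCL12, the chemokine that holds blood stem cells in the marrow, read 6.20 to 7.29 (median 6.95) on day 4 and 4.59 to 5.71 (median 5.44) on day 1 (1.64 ± 0.16, adjusted p = 1.17e-06). CX3CL1, a chemokine tethered to the membrane, differed by 1.20 ± 0.13. TLR4, the receptor for bacterial lipopolysaccharide, was among the 15 largest rises, at 6.39 to 7.32 (median 6.71) on day 4 and 2.81 to 4.14 (median 3.29) on day 1 (3.31 ± 0.19, adjusted p = 4.79e-09), or 2.00 by the median of its probe sets. Its lowest day 1 values lay below the mean of the background controls, 3.16 to 3.32 on these arrays, which limits what the size of its difference can show. Of 5 tested leukocyte markers, CD14, the co-receptor of TLR4, was the 1 that was higher. The median over the leukocyte list was 3.68 to 4.16 on the day 4 arrays and 3.68 to 4.02 on the day 1 arrays. The array medians over all probe sets were 3.98 to 4.06 on day 4 and 3.97 to 4.02 on day 1.

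The remaining large rises lay outside the lists and held several secreted and surface proteins. Ceruloplasmin (CP), the copper-carrying ferroxidase, read 6.97 to 8.72 (median 7.61) on day 4 and 3.20 to 5.35 (median 3.71) on day 1 (3.82 ± 0.22, adjusted p = 4.07e-09), with a difference of 2.10 by the median of its probe sets. SCARA5, a receptor for ferritin, read 7.56 to 8.96 (median 8.21) on day 4 and 3.57 to 6.17 (median 4.56) on day 1 (3.44 ± 0.30, adjusted p = 3.64e-07), or 2.40 by the same median. The ribonucleases RNASE4 (3.42 ± 0.20) and angiogenin (ANG, 3.04 ± 0.18), which lie side by side in mammalian genomes, rose alike. Matrix Gla protein (MGP), an inhibitor of calcification (2.95 ± 0.26), the calpain CAPN6 (3.59 ± 0.31), the lectin receptor CD302 (3.31 ± 0.22) and the selenium-binding protein SELENBP1 (2.90 ± 0.20) completed the 15. Of these, 14 had groups of arrays that did not overlap, against 10.7% of the 7497 named genes. The 15 were chosen by size and sign on the same arrays, so that this count is no separate evidence.

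Genes of growth factors and their receptors were more often higher than lower. Of 39 genes of IGF, FGF, HGF and PDGF signals 20 were higher, 7 lower and 12 not passing, with a median difference of 0.53. IGF1, a mitogen for connective tissue cells, read 10.4 to 11.8 (median 11.3) on day 4 and 7.91 to 9.88 (median 9.31) on day 1, 5.40-fold higher (2.43 ± 0.15, adjusted p = 8.25e-09). PIK3R1, the regulatory subunit of the kinase below its receptor, read 10.2 to 11.3 (median 10.8) on day 4 and 8.27 to 8.96 (median 8.75) on day 1 (2.06 ± 0.13, adjusted p = 1.06e-08), or 1.46 by the median of its probe sets. The receptor PDGFRA (1.53), the mitogen FGF2 and the IGF carrier IGFBP4 (1.38) were higher too. MET, the receptor for hepatocyte growth factor, fell, at 4.06 to 4.86 (median 4.35) on day 4 and 5.08 to 6.94 (median 6.11) on day 1 (-1.67 ± 0.17, adjusted p = 1.86e-06), while its ligand HGF did not pass (0.99, adjusted p = 0.0135, or 0.00888 without the DL FS day 1 array).

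Of 30 Wnt pathway genes 11 were higher and 4 lower. The receptor FZD4 rose, at 8.20 to 8.60 (median 8.42) on day 4 and 5.98 to 6.81 (median 6.12) on day 1 (2.09 ± 0.11, adjusted p = 9.81e-10), as did the co-receptor LRP6, at 9.64 to 10.0 (median 9.89) on day 4 and 7.80 to 8.39 (median 8.07) on day 1 (1.76 ± 0.10). The ligand WNT2B (-1.87 ± 0.20) and the secreted inhibitor WIF1 (-1.61 ± 0.20) fell. The TGF-beta and BMP pathway was even, with 9 of 34 genes higher and 9 lower, against 18.8% and 23.3% of all named genes. The betaglycan receptor TGFBR3 (1.65 ± 0.11) and the activin receptor ACVR2A (1.35 ± 0.08) rose, and the activin subunit INHBA (-2.21 ± 0.19) and the BMP antagonist noggin (NOG, -1.44 ± 0.08) fell. Of 31 genes of Notch, ephrin, semaphorin and Slit signals 10 were higher and 10 lower. Of the Notch genes the receptor NOTCH2 rose (0.42, a call that was lost with the left-out array added), while the ligand JAG1 fell by 1.25, the receptor NOTCH1 by 1.24, the target HEY1 by 0.71 and the target HEY2 by 2.01. HEY2 read 6.88 to 8.21 (median 7.80) on day 4 and 9.01 to 10.1 (median 9.95) on day 1 (adjusted p = 3.15e-07).

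Genes of fatty acid synthesis and storage did not move one way. Of 26 genes of fatty acid synthesis and storage 5 were higher, 4 lower and 17 not passing, and the median difference was 0.05. Without the DL FS day 1 array 2 were lower, and with the left-out array added as labelled 3 were higher. Perilipin 1 (PLIN1), which coats lipid droplets, read 5.41 to 6.34 (median 5.85) on day 4 and 4.71 to 5.59 (median 5.19) on day 1 (0.72 ± 0.16, adjusted p = 0.0015) with overlapping groups. The median over the fat cell markers was 4.29 to 6.48 on the day 4 arrays and 4.10 to 5.55 on the day 1 arrays. Of 15 genes of cholesterol synthesis and uptake 7 were higher, or 4 with the left-out array added, among them INSIG1, which holds back sterol synthesis (0.87 ± 0.10), and HMGCS1 (0.70 ± 0.08). Of 18 adipogenic regulators and adipokines 8 were higher and only RBP4, a carrier of retinol, was lower (-0.45), a call that was lost without any of 5 arrays. The early regulators CEBPD, EBF1, EBF2 and ZNF423, which act before PPARG in fat cell formation, had the largest rises. CEBPD read 8.40 to 8.87 (median 8.71) on day 4 and 6.79 to 7.41 (median 7.07) on day 1 (1.64 ± 0.10, adjusted p = 8.38e-09), and EBF1 read 10.1 to 10.5 (median 10.3) on day 4 and 8.46 to 9.15 (median 8.88) on day 1 (1.39 ± 0.10). EBF2 differed by 1.61 ± 0.15 and PPARG, the master regulator, by 0.93 (adjusted p = 0.000705).

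Most genes of lysosomes were higher. Of 31 genes of lysosomes and autophagy 19 were higher and none lower, with a median difference of 0.43. The protease TPP1 read 9.08 to 9.57 (median 9.33) on day 4 and 8.11 to 8.34 (median 8.15) on day 1 (1.17 ± 0.08, adjusted p = 4.53e-08), the acid lipase LIPA differed by 1.08 ± 0.08 and the membrane protein SCARB2 by 1.00 ± 0.09. Of 24 antioxidant genes and NRF2 targets 11 were higher, 5 lower and 8 not passing. The selenium carrier SELENOP read 9.44 to 9.94 (median 9.76) on day 4 and 6.59 to 7.56 (median 7.04) on day 1, 6.18-fold higher (2.63 ± 0.15, adjusted p = 3.26e-09), and the secreted peroxidase GPX3 (1.72 ± 0.10) and mitochondrial SOD2 (1.91 ± 0.16) rose with it. Of 12 clock genes 2 were higher, BHLHE40 and RORA, against 18.8% of all named genes. With the left-out array added as labelled neither of them passed.

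These changes were set against those of the same days in AIM, in 8 arrays of each day, and the difference between the media was tested as an interaction over 31 arrays, a fit of its own whose values can differ in the last digit from the plain difference of the changes. In AIM 8268 probe sets passed between day 4 and day 1 (45.1%), 3437 higher (18.7%) and 4831 lower (26.3%). The change differed between the media for 5618 probe sets (30.6%), with CCM above AIM in 3292 (18.0%) and below it in 2326 (12.7%). Among the 7497 named genes the change in CCM was above that in AIM in 20.6% and below it in 13.9%.

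Mitosis genes fell in both media. In AIM 66 of the 67 were lower, with a median difference of -2.59. The change differed between the media for 21 of the 67, against 34.5% of all named genes. CCM was below AIM in 17 and above it in 4, against 13.9% and 20.6% of all named genes. For CDK1 the change was -4.16 in CCM and -3.30 in AIM (difference between media -0.85, adjusted p = 0.00784), and for CCNB1 it was -4.03 in CCM and -3.66 in AIM (adjusted p = 0.256). For the replication genes the change was lower in CCM for 32 of the 50 and higher for 1. MCM10 changed by -2.95 in CCM and by -0.92 in AIM (difference -2.05, adjusted p = 3e-10). The levels on day 1 differed as well, since the list's level was 6.94 on the day 1 arrays in CCM and 6.21 on those in AIM (medians over arrays), with 5.16 in CCM and 4.98 in AIM on day 4.

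Ribosome biogenesis and the proteoglycans showed changes that differed by medium. For ribosome biogenesis 20 of 25 genes were lower in CCM and 7 in AIM, where 31.4% of all named genes were lower, and the change in CCM was below that in AIM for 10 and above it for none. For the small proteoglycans and elastic fibres 17 of 31 were higher in CCM but 3 in AIM, where 13 were lower, and the change in CCM was above that in AIM for 20 and below it for 1. OMD changed by 2.14 in CCM and -0.44 in AIM (2.58, adjusted p = 8.05e-09), and OGN by 1.95 in CCM and -0.66 in AIM. COL14A1 (3.35, adjusted p = 7.46e-14) and POSTN (2.87, adjusted p = 4.6e-08) passed with opposite directions in the media. TNFSF10 rose in both media but by 2.96 more in CCM (adjusted p = 3.99e-09), and CP changed by 3.82 in CCM and 0.58 in AIM (3.21, adjusted p = 4.79e-09).

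Interferon-induced genes had a median change of 0.82 in CCM and 0.83 in AIM, and the change differed between the media for 6 of 31, against 34.5% of all named genes. For IFIT1 that difference was 0.01 ± 0.44 (SE), with day 1 values in CCM partly below the background controls. The difference between the media did not pass for C1S (-0.22 ± 0.17), VCAM1 (0.39 ± 0.33), IGF1 (0.03 ± 0.29) and SELENOP (0.06 ± 0.27) either. The largest differences between the media belonged to genes that rose in AIM by over 4 log2 units, several of them of fat cells. CD36, a fatty acid transporter, changed by 0.56 in CCM, where its mean was below the background controls on both days, and by 7.24 in AIM (-6.64, adjusted p = 2.04e-15). Adiponectin (ADIPOQ) changed by 0.57 in CCM and 6.67 in AIM, the glycerol channel AQP3 by -0.39 in CCM and 5.74 in AIM and the hyaluronan synthase that the platform calls SHAS2 by -1.85 in CCM and 5.10 in AIM. The Notch ligand JAG1 fell in CCM but rose in AIM by 1.12 (-2.38, adjusted p = 3.16e-13).

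**Figure D3:**
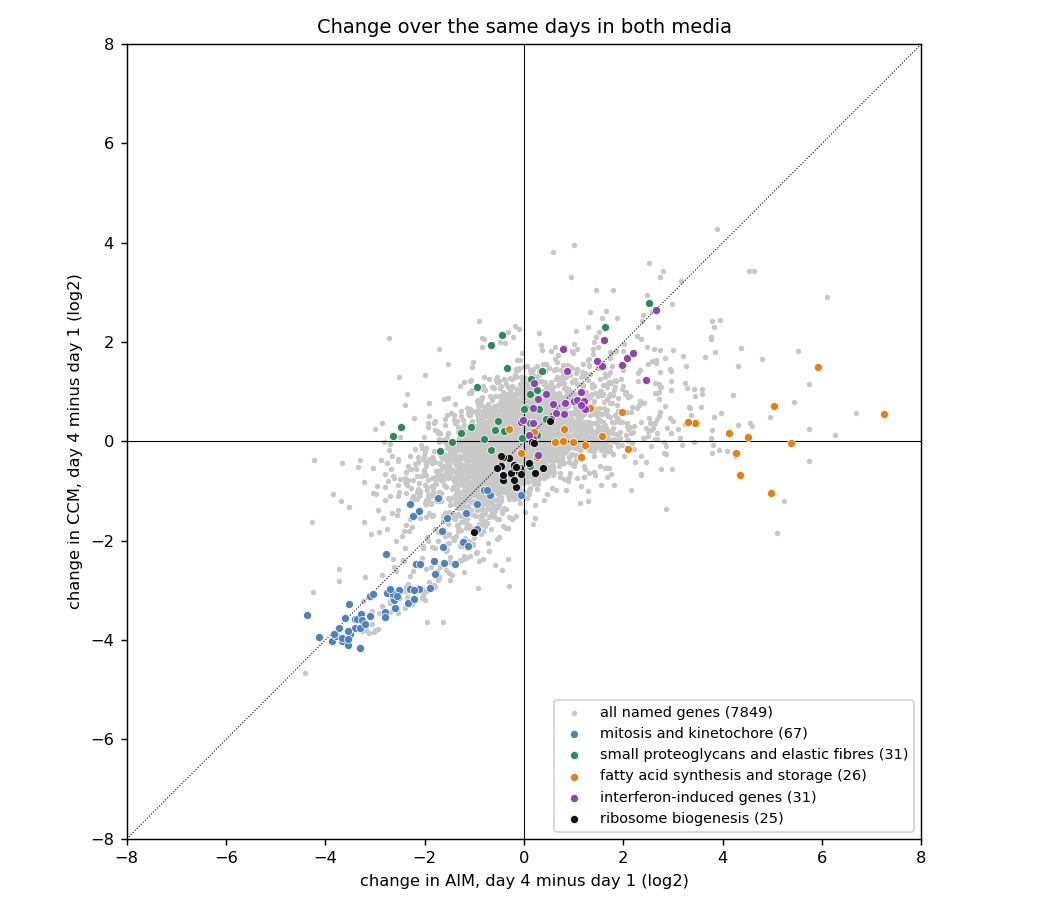
Change of each of 7849 genes, counted with those that only the tables of the study name, (grey points) between day 4 and day 1 (log2) in CCM (vertical axis) and in AIM (horizontal axis), with 5 gene lists coloured and the line of equal change dotted. Mitosis genes lie near the line with falls in both media, proteoglycan genes lie mostly above it and genes of fatty acid synthesis and storage lie to its right, with medians of 0.05 in CCM and 1.77 in AIM.

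In the course of the CCM cultures the lists of division had their highest level on day 1. A list's level on an array is the median over its genes, and the values given here are medians over the arrays of a day, without the 4 arrays of the series whose labels disagree with the tables of the study. These levels are a description and were not tested. A gap between levels is not the median change of a list's genes. Between days 1 and 4 that median change was 0.42 for proteoglycans and elastic fibres and 1.15 for complement. The mitosis list began at 6.18 on day 0 and reached 7.74 on day 1, and it then stood at 4.75 (day 4), 5.11 (day 7) and 4.82 (day 14). On days 4 to 14 it thus lay below its level on day 0 as well as on day 1. The replication list followed the same course, at 5.89 on day 0, 6.94 on day 1, 5.16 on day 4 and 5.23 afterwards.

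Several lists that rose after day 1 had stood higher on day 0. CDK inhibitors and arrest genes stood at 7.32 on day 0, 6.42 on day 1 and 7.33 on day 4, and stayed at 7.38 and 7.45 on days 7 and 14. Proteoglycans and elastic fibres stood at 8.68 on day 0, 7.76 on day 1 and 9.00 on day 4. Complement passed its level of day 0, which was 7.48, with 6.48 on day 1, 8.36 on day 4 and 8.80 at the end. The contractile list had its highest level on day 1 (10.1) and continued down to 9.06 on day 4 and 8.74 on day 14. Immediate early genes stood at 8.51 on day 0 and between 6.10 and 6.50 on all later days.

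**Figure D4:**
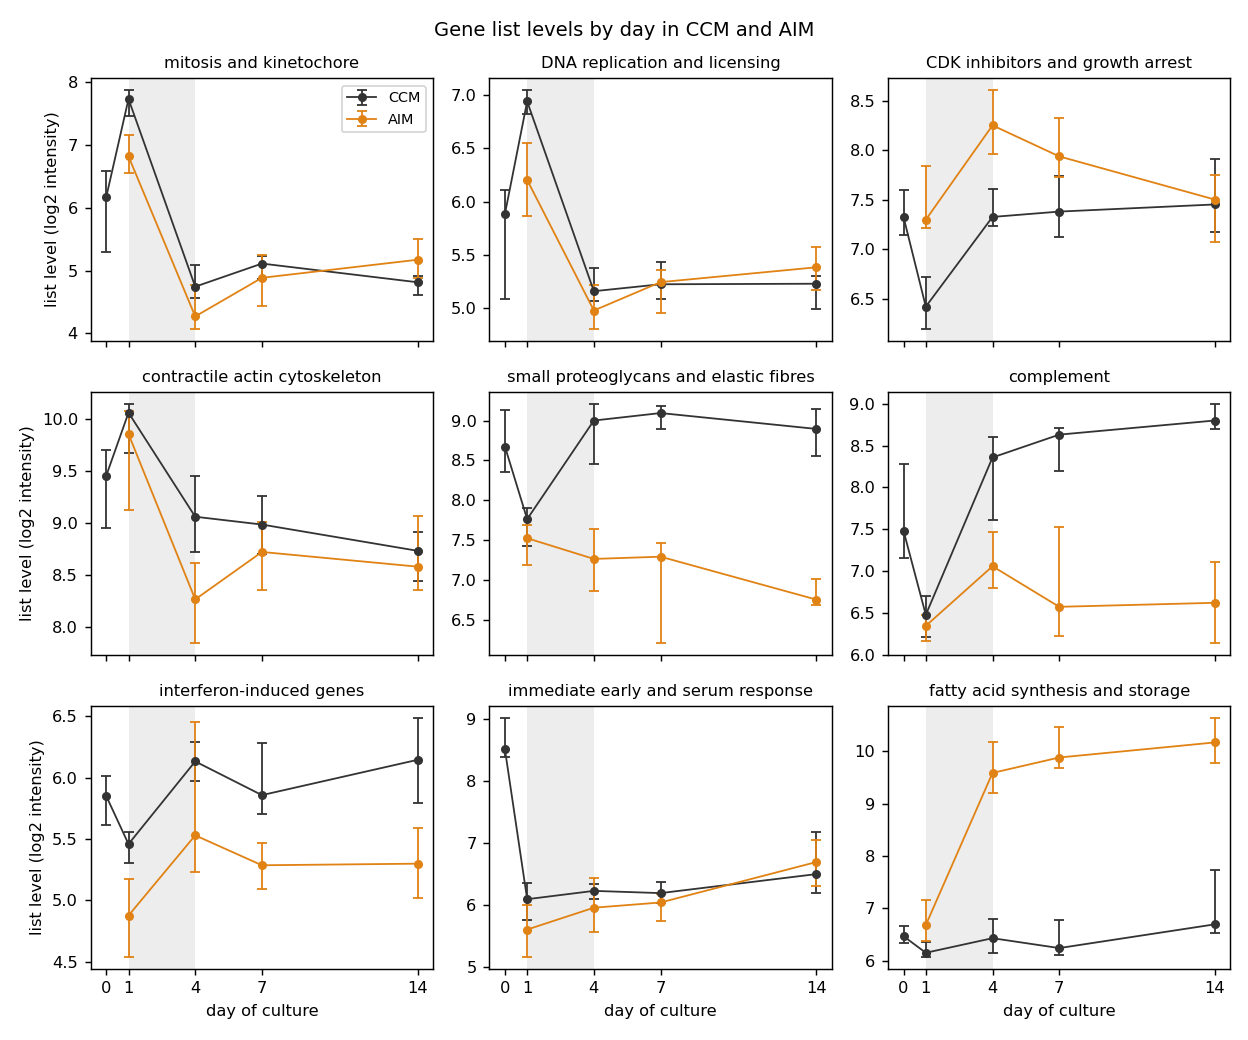
Level of 9 gene lists (log2 intensity, median over the genes of the list) by day of culture in CCM (dark, from day 0) and AIM (orange, from day 1); points are medians over the 7 or 8 arrays of a day and bars run from the lowest to the highest array. The grey band marks days 1 to 4, in which the mitosis level in CCM fell to 4.75 on day 4, against 7.74 on day 1, and the complement level rose to 8.36, against 6.48.

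Whether the change depended on breed or tissue was tested as an interaction within the 15 arrays. No probe set had a change between the days that differed between AS and DL pools at an adjusted p under 0.01 (0.0%), while 2600 did at an unadjusted p under 0.05 (14.2%). The smallest adjusted p was 0.0271, for KERA. On day 4 KERA read 2.26 to 3.18 in the AS cultures and 4.72 to 5.14 in the DL cultures, and on day 1 all 7 arrays lay between 1.98 and 2.58, below the background controls, so that no size is given for the difference. Between FP and FS pools no probe set passed (0.0%), 612 did at an unadjusted p under 0.05 (3.34%), and the smallest adjusted p was 0.791. With at most 2 cultures per pool and day, a p that misses the threshold does not show that breeds or tissues changed alike.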

How the data were processed

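Total RNA of 72 cultures was hybridised to Affymetrix porcine Snowball arrays by the authors, who summarised the probes with RMA (background correction, normalization and summarization). The deposited values are log2 expression per probe set, and GCOS 1.1.1 is listed in the submitters' processing notes. Values below the level of the background control probe sets were kept as deposited. Arrays carry no read depth, so that the number of arrays limits the precision. Probe sets were kept if their SD over the 72 arrays exceeded 0.25 and they lay above the array median in at least 8 arrays, which left 18335 after controls were removed. Of 47845 probe sets 26426 had a gene name on the platform, of which 446 were updated to current symbols and 80 conflicting names were dropped, and 885 more were named from the tables of the study. Where several probe sets carry a name, the one with the highest mean stands for the gene.

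Day 4 and day 1 in CCM were compared in limma 3.58.1 (R 4.3.3) with the 4 pools as a fixed block, over 15 arrays with 10 residual degrees of freedom, and p-values were adjusted over all probe sets by Benjamini-Hochberg with a threshold of 0.01. Differences between media, breeds and tissues were tested as interactions in limma. The fit was tested on simulated data. Sample groups come from the labels, and replicate numbers were not used as pairs. The members and the gene lists were chosen with earlier results of these data known. Named genes were the 15 largest rises and falls among passing genes with the same sign in all pools and a clear level, up to 4 passing genes of each list by size (up to 10 for lists of division, arrest and matrix), and the largest differences between media. The genes given without a range of values or an SE in the text lie mostly outside this rule and were chosen after their values were seen, as were HEY1, NOTCH2, COL1A1 and COL1A2. Alternatives changed the filter, centring, normalization, blocks, choice of arrays and probe sets, and were joined after the data were seen by raising values to the background controls.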

Additional observations from a re-analysis of the deposited data

Results flagged for a closer look

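Of 388 groups of arrays examined, a day 4 and a day 1 group for each of 194 genes named, 7 held an array far from the others of its group by Dixon's criterion, where chance gives about 1 in 20. On day 4, EXO1 read 4.43 in AS FP replicate 1, against 3.88 for the nearest array, and EBF1 read 10.5 in DL FP replicate 1, against 10.3. On day 1, BHLHE40 read 9.57 in AS FS replicate 1, against 10.0, and INSIG1 read 6.39 in the same culture, against 6.66. EGR3 read 3.27 in AS FP replicate 1, against 4.18, RRM2 read 7.94 in AS FS replicate 2, against 8.44, and TPP1 read 8.34 in DL FP replicate 2, against 8.2.

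The change between the days differed between the media, in limma's interaction test at an adjusted p under 0.01, for 13 of the genes set beside each other in CCM and AIM. The change was higher in CCM by 3.35 for COL14A1, 3.21 for CP, 2.96 for TNFSF10, 2.87 for POSTN, 2.59 for OGN and 2.58 for OMD. It differed, as CCM minus AIM, by -0.847 for CDK1, -2.05 for MCM10 and -2.38 for JAG1. The differences of the genes that rose steeply in AIM were -6.94 for SHAS2, -6.64 for CD36, -6.12 for AQP3 and -6.11 for ADIPOQ. The means of CD36 in CCM were below the background controls on both days, so that the size of its difference depends on that floor.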

How the results depend on the processing

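The count of passing probe sets lay between 6203 and 7772 when the filter, the centring, the normalization or the blocks were changed, and between 5818 and 6546 (higher 2968 to 3197, lower 2850 to 3359) when each array was left out in turn. With replicate 1 cultures only 2975 passed (1369 higher, 1606 lower), and with replicate 2 cultures only 2134 passed (1058 higher, 1076 lower), in fits with fewer arrays. Replicate numbers correlated at 0.134, 0.206 and 0.0991 within pools across the days and so were not taken as pairs. With the replicate block 6271 passed. Within a day, the difference between replicates correlated between AS FP and AS FS at 0.251 (day 1) and 0.2 (day 4). For DL FP with DL FS it was 0.186 (day 4), and for other pairs of pools -0.00039 to 0.0972. On day 1 the replicate 1 arrays of AS FP and AS FS scored -35.4 and -38.4 on the first component, against -53.8 to -47.0 for the others. An effect shared by replicates was not tested. The differences between breeds and between tissues counted 0 passing probe sets, or 0 to 1 when each array was left out (1, lower, without AS FS day 1 replicate 2, in each test). The mitosis count of 67 lower genes was 65 with the median of the gene's probe sets, 66 with replicate 2 cultures only and 67 in every other alternative run.

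Signs turned only for small or uncalled values. With the median of the gene's probe sets SLA-1 read -0.17, WDHD1 -0.65 and CCND2 0.13, with quantile normalization CCND2 read 0.015 and COL1A2 0.091, with replicate 2 cultures only CCND2 read 0.022 and WDHD1 -0.087, and MYC read -0.14 with 16 arrays, -0.083 with replicate 1 cultures only and -0.018 to 0.11 when each array was left out. The cause was not tested. PPARG lost its call without the pool block (adjusted p = 0.0223). KERA was below the background controls on day 1 and lost its call with the replicate block (adjusted p = 0.0127). Signals near the background controls limit what low values can show.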
